A study of Mus musculus with 69 samples.

Results

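The nuclear receptors for estrogens (Esr1, Esr2), progesterone (Pgr), glucocorticoids (Nr3c1) and mineralocorticoids (Nr3c2) were followed in the pituitary, hypothalamus and ovary of female mice, together with the membrane estrogen receptor Gper1 and the estrogen-induced coactivator Greb1. These 7 genes were taken by symbol from the 55964 gene identifiers in the deposited count tables, and each symbol matched 1 identifier. RNA-seq was performed on mice on a C57BL/6J background with 3 Zeb1 genotypes. WT mice carry the normal gene, Zeb1_200H mice are heterozygous and Zeb1_200M mice are homozygous for point mutations that destroy every predicted target site of the miR-200 family in the 3′ end of the Zeb1 message. The allele is carried in every cell, so a difference in a tissue need not arise there. Lines from both ES cell clones (6B6 and 3C5) contributed animals to each cohort, and the labels do not say which library came from which.

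Young mice were virgins of 8 to 12 weeks, and older mice were 28 to 36 weeks old and had been through a breeding trial; all tissues were taken in proestrus. There were 69 libraries in 18 groups of cohort, tissue and genotype, 15 of them with 4 libraries and 3 with 3 (WT young pituitary, 200M older pituitary and 200M older hypothalamus). The labels give no animal for a library, so a p-value measures the spread between the samples of a group, which the study describes as biological replicates. Young libraries were rRNA-depleted and stranded and older ones poly(A)-selected and unstranded, so age, breeding history and library chemistry cannot be told apart between cohorts. The study reports that most homozygous females had no litters in the breeding trial, while heterozygous females were fertile. The labels do not say which older libraries came from females with litters. Among older mice, the homozygous genotype and a lack of litters therefore cannot be told apart. In bulk tissue, fewer cells of a type and less RNA per cell cannot be told apart either.

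Steroid receptors are ligand-activated transcription factors: the hormone enters the cell, the receptor leaves its chaperones, binds DNA as a dimer or with other factors, and recruits coregulators. In the pituitary, ERα (Esr1) mediates estrogen feedback and drives lactotropes and gonadotropes, PR (Pgr) is an estrogen-induced receptor that augments the preovulatory LH surge, and GR (Nr3c1) restrains corticotropes. MR (Nr3c2) binds both aldosterone and glucocorticoids with high affinity. In the ovary, ERβ (Esr2) is the granulosa cell receptor needed for full follicle maturation, and PR in mural granulosa cells is switched on by LH and is needed for follicle rupture.

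Coordinates are those of GRCm38 (GENCODE M21). Esr1 (ENSMUSG00000019768) is at chr10:4611593-5005614 on the plus strand and Esr2 (ENSMUSG00000021055) at chr12:76120419-76177259 on the minus strand. Pgr (ENSMUSG00000031870) is at chr9:8899833-8968611, Nr3c2 (ENSMUSG00000031618) at chr8:76899442-77245012 and Gper1 (ENSMUSG00000053647) at chr5:139423151-139427800, all on the plus strand. Greb1 (ENSMUSG00000036523) is at chr12:16670615-16800886 on the minus strand. The antisense gene Gm48140 covers 736 exon bases of Greb1 (7.68%) and Gm10649 on the opposite strand covers 247 exon bases of Nr3c2 (3.82%). Reads there cannot be assigned to 1 of the genes in the unstranded older libraries.

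The mutated sites in Zeb1 pair with the seeds of the miR-200 superfamily, whose mature sequences (RefSeq, GRCm38.p6) are shown with bases 2 to 8 in capitals because their complements were searched for in the receptor genes. The first 3 share 1 seed and the last 2 another.
miR-200b-3p, chr4:156055685-156055706, minus strand: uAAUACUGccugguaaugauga
miR-200c-3p, chr6:124718324-124718346, minus strand: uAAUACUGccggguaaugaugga
miR-429-3p, chr4:156053916-156053937, minus strand: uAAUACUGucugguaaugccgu
miR-200a-3p, chr4:156054911-156054932, minus strand: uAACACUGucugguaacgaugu
miR-141-3p, chr6:124717917-124717938, minus strand: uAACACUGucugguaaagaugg

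In the longest annotated 3′ UTR of each gene, the complements of both seeds were searched as 7mers, CAGTATT for the first seed and CAGTGTT for the other. Zeb1 itself held 5 and 4 matches in 2401 bases. Among the receptor genes, Nr3c1 held 3 and 2 matches in 3937 bases and Pgr held 1 CAGTATT match in 3473 bases, at chr9:8968460-8968466, shown with flanking bases and the match in capitals. The 3′ UTRs of Esr1 (4191 bases), Esr2 (1311), Nr3c2 (2482), Greb1 (1765) and Gper1 (771) held none of these letters. For comparison, of 5336 genes with a 3′ UTR of at least 2000 bases, 30.6% held CAGTATT and 40.6% held CAGTGTT. These matches are a description of the normal sequence, and none of the receptor UTRs was altered in the mice.
Pgr 3′ UTR, chr9:8968449-8968477, plus strand: gatgtcatgccCAGTATTgttttgtggaa

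ZEB1 is a repressor that binds E-box sequences such as CAGGTG and CAGGTA, and estrogen receptors bind GGTCA elements or the palindrome GGTCANNNTGACC. These letters were searched on both strands in RefSeq promoter windows of 300 bases (GRCm38.p6, 250 before to 50 after a start), with entries for 6 of the 7 genes (none for Nr3c1). CAGGTG was found in 20.21% of all 32851 windows, CAGGTA in 11.96%, GGTCA in 40.48% and the palindrome in 0.07%. Pgr and Greb1 held CAGGTG and the second Esr1 window CAGGTA, while GGTCA was found in Esr1, Esr2, Nr3c2 and Greb1. No window of these genes held the palindrome, and Gper1 held none of the motifs. The windows that carry an E-box are shown in the direction of the gene with the motif in capitals. For Greb1 this is the minus strand, where CACCTG is CAGGTG read from the other strand.
Pgr promoter, chr9:8899692-8899719, plus strand: atctgatattcCAGGTGgaatcagacta
Esr1 second promoter, chr10:4709929-4709956, plus strand: ttctggctctaCAGGTAgggagcaaagg
Greb1 promoter, chr12:16800837-16800855, minus strand: tcctgtgcctaCACCTGga

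Summed over genes, counts ranged from 3321845 to 13342430 in young libraries and 4527753 to 14655095 in older ones. Levels are CPM (counts scaled to a common library size) with TMM scaling within a tissue and cohort, and tests are edgeR quasi-likelihood F tests with Benjamini-Hochberg adjusted p over all genes tested. A call is an adjusted p under 0.05. Zeb1 was called higher in the pituitary of 200M (log2 fold change 0.52 in young and 0.55 in older mice) and of 200H (0.44 and 0.33). It was not called in hypothalamus or ovary, where its log2 fold changes against WT lay between −0.26 and −0.05. The tissue labels held: summed CPM of the 5 pituitary hormone genes Gh, Prl, Pomc, Tshb and Cga was at least 65410 in every pituitary library, and in the hypothalamus at most 160.2. In the pituitary this sum went down with the mutation, from 159900 to 183800 in young WT to 65410 to 87950 in 200M. Without these 5 genes in the totals and the fit, the receptor gene calls below were the same in all 6 pituitary comparisons. This bears only on the scaling of the libraries. The part of the hormone genes or their cells in the results was otherwise not tested.

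In WT tissues, each receptor had its own pattern, compared here per kilobase of exon because the genes differ in length. Esr1 was highest in pituitary, with 30.7 ± 1.46 CPM per kb (SD, n = 3) in young pituitary against 12.0 in ovary and 2.11 in hypothalamus. Esr2 was highest in ovary (63.2 in young mice) and low in hypothalamus (0.528) and pituitary (0.126). Pgr was also highest in the pituitary (30.8) but had its next highest level in hypothalamus (17.8), ahead of ovary (9.26). Greb1 was highest in ovary (112), then pituitary (47.3), and was near the bottom of the range in hypothalamus (0.822).

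The corticosteroid receptors were spread more evenly. Nr3c1 was at 13.5 CPM per kb in young pituitary, 14.9 in hypothalamus and 9.54 in ovary, and Nr3c2 at 15.6, 9.72 and 3.20. Gper1 was low everywhere, at 3.81, 0.594 and 0.287. The order of the tissue means was the same in older WT mice for all 7 genes, for example Esr1 (14.1 in pituitary, 5.84 in ovary, 2.23 in hypothalamus) and Greb1 (65.3, 136 and 1.25). Pgr in ovary was at 9.26 CPM per kb in young and 0.822 in older WT, libraries of different chemistry whose levels were not tested against each other.

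**Figure D1:**
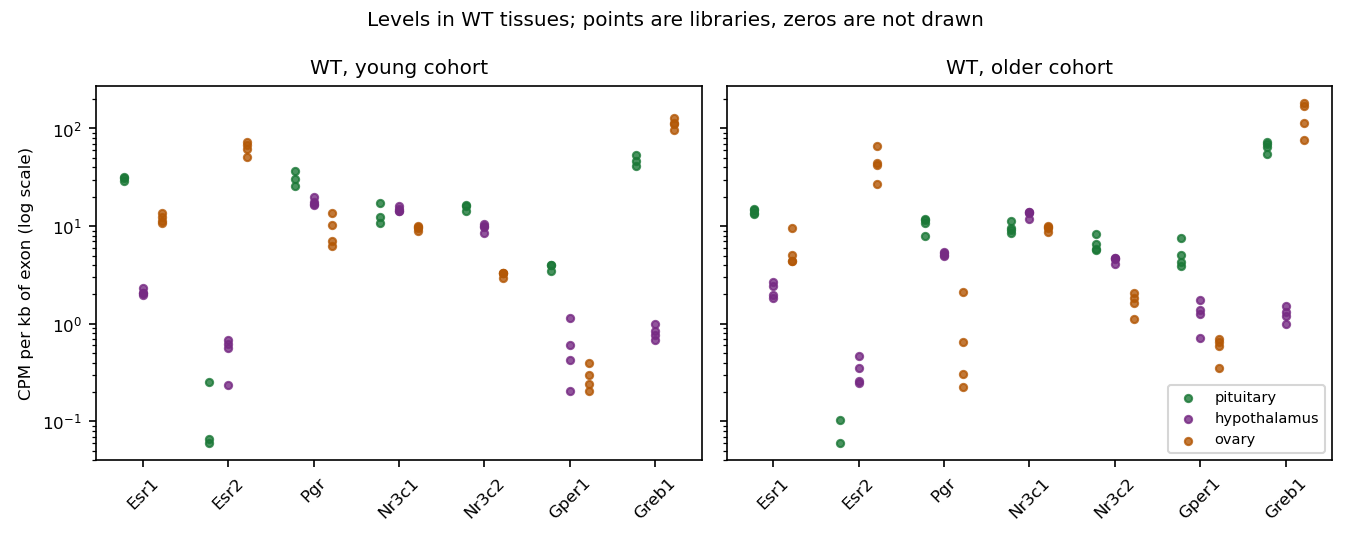
CPM per kb of exon (log axis) of the 7 genes in each WT library, by tissue, in the young (left) and older (right) cohort. Esr2 averages 63.2 in young ovary and 0.126 in pituitary, while Nr3c1 averages 9.54 to 14.9 across the young tissues; libraries with no Esr2 count are not drawn.

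Nearly all of these tissue differences were larger than the spread between mice. In young WT, 7 of 7 tested genes were called between pituitary and ovary (background: 68.3% of all genes), 5 of 6 between pituitary and hypothalamus (72.2%) and 6 of 6 between ovary and hypothalamus (76.7%). In older WT the counts were 7 of 7 (77.0%), 6 of 6 (76.8%) and 7 of 7 (82.6%). With most genes called, these shares are near the background. Among neighbours tested, only Nr3c1 in young pituitary and hypothalamus was not called (log2 difference −0.21 ± 0.11 SE, adjusted p = 0.0996). In older WT, Nr3c1 was called higher in pituitary than ovary (0.42, adjusted p = 0.00247), a call that ends, with the sign turned, when libraries are scaled by total counts alone.

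The corticosteroid receptors rose in the pituitary of both mutant genotypes, in both cohorts. Nr3c1 (ENSMUSG00000024431, chr18:39410545-39519421, minus strand), the glucocorticoid receptor, was at 96.1, 132 and 81.9 CPM in the 3 young WT pituitaries. It was at 198, 158, 140 and 152 CPM in 200H and at 148, 156, 178 and 157 CPM in 200M. Every mutant library lay above every WT library. Relative to WT, the log2 fold change was 0.62 ± 0.12 (SE) for 200M (adjusted p = 0.00235) and 0.64 ± 0.15 for 200H (adjusted p = 0.0136).

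Older pituitaries gave the same separation for Nr3c1. The 4 WT libraries were at 74.1, 65.6, 70.9 and 85.8 CPM, the 4 of 200H at 104, 120, 123 and 133, and the 3 of 200M at 137, 134 and 114. No mutant value fell into the WT range. The 200M difference was 0.80 ± 0.11 log2 units (adjusted p = 0.000281), and that of 200H was 0.70 ± 0.11 (adjusted p = 0.00104), that is 1.73 and 1.62 times the WT mean. The young 200H call is the least firm of the 4, since it was lost without WT replicate 1 (adjusted p = 0.0734) or without the WT library that carries no usable number (adjusted p = 0.0754).

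Nr3c2 encodes the mineralocorticoid receptor. Young WT pituitaries were at 105, 106 and 92.3 CPM, 200H at 147, 147, 189 and 145, and 200M at 162, 179, 168 and 159. The groups did not overlap with WT, and the 200H library at 189 CPM stood apart from the other three. The 200M rise of Nr3c2 was 0.72 ± 0.07 log2 units (adjusted p = 3.91e-06), and that of 200H was 0.62 ± 0.10 (adjusted p = 0.00106).

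In older mice Nr3c2 was at 36.6, 38.1, 42.8 and 53.7 CPM in WT, 49.1, 66.3, 64.0 and 65.6 in 200H and 73.7, 73.6 and 71.4 in 200M. The 200M values lay above the others, while 1 of the 200H values fell within the WT range. The rise was 0.78 ± 0.12 log2 units in 200M (adjusted p = 0.000921), and that of 200H was 0.52 ± 0.14 (adjusted p = 0.0259). The 200H call was lost on leaving out 6 of the 8 libraries one at a time (adjusted p up to 0.0844). Between 200M and 200H neither receptor was called in either cohort, with log2 differences of 0.25 ± 0.11 for Nr3c2 and 0.10 ± 0.10 for Nr3c1 in older mice.

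**Figure D2:**
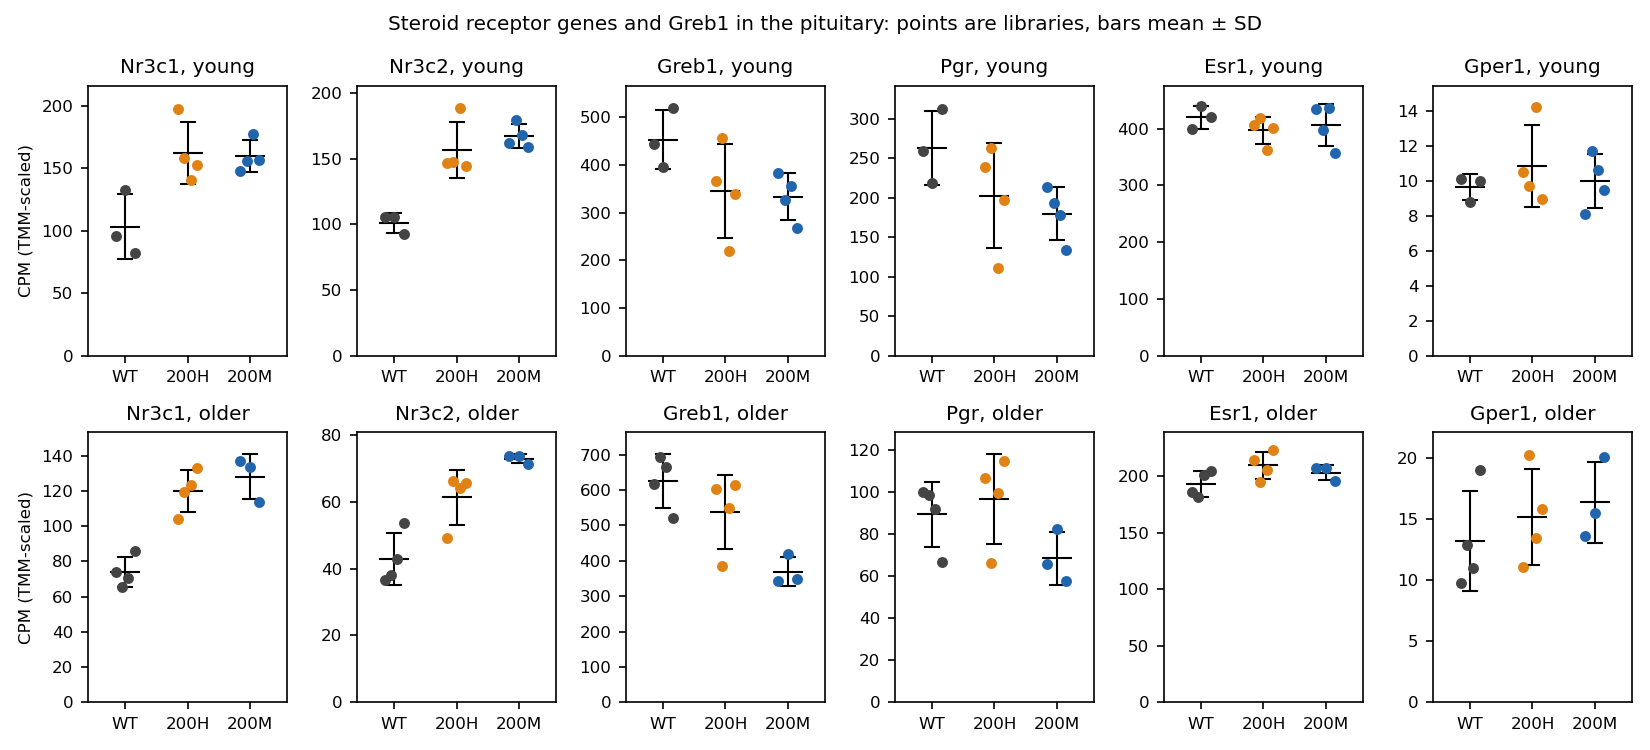
CPM of 6 genes in each pituitary library, by genotype, young cohort above and older cohort below; black marks are the mean ± SD. Nr3c1 and Nr3c2 are higher in both mutant genotypes (older WT Nr3c1 65.6 to 85.8 CPM, 200M 114 to 137), Greb1 is lower in 200M, and Esr1 and Gper1 overlap between genotypes.

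Greb1 and Pgr, 2 genes that estrogen induces through ERα, were lower in the 200M pituitary. Greb1 was at 444, 396 and 518 CPM in young WT and at 383, 326, 357 and 268 CPM in 200M. All 200M values were below all WT values, and the log2 fold change was −0.45 ± 0.10 (adjusted p = 0.00446). Older WT libraries were at 618, 695, 666 and 522 CPM and older 200M libraries at 343, 418 and 349 CPM. The groups again did not overlap, and the difference was −0.74 ± 0.11 log2 units (adjusted p = 0.000465), or 0.592 times the WT mean.

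For 200H, Greb1 overlapped with WT in both cohorts. Young 200H libraries were at 365, 457, 220 and 340 CPM (log2 fold change −0.40 ± 0.18, adjusted p = 0.174) and older ones at 602, 387, 549 and 614 CPM (−0.21 ± 0.14, adjusted p = 0.370). The young value was called without 200H replicate 2 (adjusted p = 0.0385). Directly compared in older mice, 200M minus 200H was −0.54 ± 0.14 (adjusted p = 0.162), which became a call without 200H replicate 2 (adjusted p = 0.00219).

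Pgr was at 259, 219 and 312 CPM in young WT pituitary and at 214, 193, 178 and 135 CPM in 200M. The highest 200M library lay just under the lowest WT library, and the log2 fold change was −0.56 ± 0.12 (adjusted p = 0.00503). The young 200H libraries were at 239, 263, 111 and 197 CPM and overlapped with WT (−0.39 ± 0.21, adjusted p = 0.283). When all 3 genotypes were fitted together, Pgr and Greb1 in young 200M fell just short of a call (adjusted p = 0.0629 and 0.0631). In older mice Pgr was at 100, 98.6, 92.1 and 67.0 CPM in WT and at 65.7, 82.5 and 57.7 CPM in 200M. WT replicate 4, the lowest of its group, lay inside the 200M range, and the log2 fold change of −0.36 ± 0.15 was not called (adjusted p = 0.102). It was called without that library (−0.48, adjusted p = 0.00782) and with no filter on low counts (−0.38, adjusted p = 0.00607). Older 200H libraries were at 107, 66.3, 99.5 and 115 CPM (0.12 ± 0.16, adjusted p = 0.697).

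Esr1, whose product drives both genes, was not called in pituitary. It was at 399, 439 and 421 CPM in young WT pituitary and at 435, 398, 436 and 358 CPM in 200M, a log2 difference of −0.05 ± 0.07 (adjusted p = 0.629). In older mice it was at 185, 181, 201 and 204 CPM in WT and 207, 207 and 195 CPM in 200M (0.09 ± 0.08, adjusted p = 0.483). The 200H libraries were at 363 to 418 CPM in young and 195 to 223 CPM in older mice, with log2 fold changes of −0.09 ± 0.07 and 0.12 ± 0.08. Scaling by total counts alone, which shifts the median of all genes upward by 0.163 in the older 200M and 0.161 in the older 200H comparison (0.122 and 0.132 in young mice), called Esr1 in both older comparisons (0.26, adjusted p = 0.0464, and 0.29, adjusted p = 0.0416).

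Gper1, a G protein-coupled receptor for estrogen, was low in pituitary, 8.80 to 10.1 CPM in young WT and 8.15 to 11.7 CPM in 200M, and not called. Older values were 9.80 to 19.0 CPM in WT and 13.6 to 20.1 CPM in 200M (0.30 ± 0.22, adjusted p = 0.355), and without WT replicate 4 the difference was called (0.54, adjusted p = 0.0404). Esr2 did not pass the filter on low counts in pituitary, with at most 9 counts in a library, and was not tested there.

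In numbers, 4 of 6 tested genes were called in young 200M pituitary (21.5% of all genes were called), 2 of 6 in young 200H (12.3%) and 0 of 6 between 200M and 200H (0.0383%). In older mice the counts were 3 of 6 (21.4%), 2 of 6 (12.2%) and 0 of 6 (0.121%). Beside the count of 0 in young mice, no gene had an unadjusted p under 0.05 and DESeq2 called 0; beside that in older mice, 3 genes did (Pgr, Nr3c2 and Greb1) and DESeq2 called 1. Because 200H and 200M were compared with the same WT libraries, their values are not independent of each other.

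**Figure D3:**
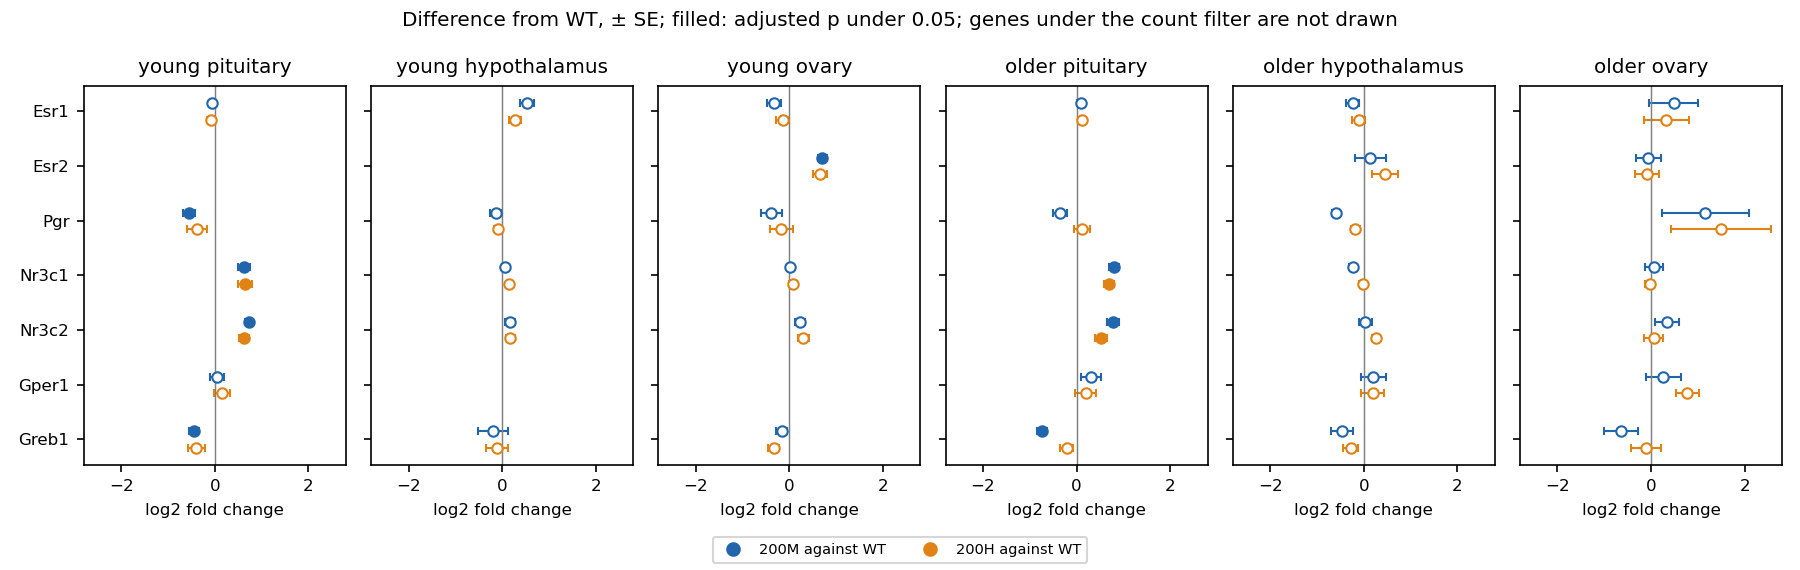
Log2 fold change (± SE) of each tested gene in 200M (blue) and 200H (orange) against WT, by cohort and tissue; filled points have an adjusted p under 0.05. Filled points lie in the pituitary panels, with Nr3c1 and Nr3c2 to the right and Greb1 and Pgr to the left of 0, and at Esr2 in young ovary (0.71).

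Summed levels of several cell type marker lists moved with genotype in the pituitary. Summed CPM of 5 immune cell markers was 24.7 to 33.3 in young WT and 36.6 to 42.8 in young 200M, and 46.8 to 58.8 against 65.3 to 85.5 in older mice. Csf1r, a macrophage receptor, was the member of that list called in both cohorts. Summed CPM of 5 gonadotrope markers overlapped in young mice (339.5 to 469 in WT, 323 to 419 in 200M) and was lower in older 200M (419.5 to 501 against 254.5 to 339.5). Within that list Lhb, the LH β subunit, fell in both cohorts (−1.68 and −2.33) while Nr5a1, a gonadotrope transcription factor, rose (0.86 and 0.93). Stem and folliculostellate markers overlapped in both cohorts (83.6 to 106 against 91.2 to 107 in young mice). The sum of 4 oligodendrocyte markers was lower in 200M, at 41.8 to 47.5 CPM against 70.1 to 77.9 in young WT and at 44.6 to 56.0 against 61.5 to 86.9 in older WT. Genes of the luteal list, 7 in number, summed higher without overlap (319.8 to 378 in young WT, 518 to 564 in young 200M, 134 to 160.2 in older WT and 224 to 261.5 in older 200M), and the 8 of the granulosa list lower (63.8 to 65.7, 50.7 to 57.4, 49.0 to 68.0 and 44.4 to 47.8 in the same order). Both of these lists are of ovarian cells, and Foxl2 is shared by the granulosa and gonadotrope lists. Summed CPM of the hypothalamic neuron markers overlapped in young mice (617.5 to 899.6 in WT, 647 to 949 in 200M) and reached higher in older 200M pituitary (8733 to 12060 in WT, 11340 to 24310 in 200M). That list holds Pomc, also among the pituitary hormone genes named above, and summed to 1091 to 1381 in older WT hypothalamus. In pituitary the sum therefore does not single out neurons. The part of these shifts in the receptor results was not tested.

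Other genes of the steroid pathway were read from 8 lists, and their counts of called genes stand against 21.5% of all genes in young and 21.4% in older 200M pituitary, and 12.3% and 12.2% in 200H. Of 12 related receptors, 9 were tested in young 200M pituitary, and 3 rose. The membrane progestin receptor Paqr7 rose by 0.53 (adjusted p = 0.00582), with Nr2f1 (0.63) and the orphan receptor Esrrg (0.28). In older 200M, 4 of 10 rose, among them Nr2f1 (0.71), Esrrg (0.62) and Paqr7 (0.44). The list medians of 0.15 and 0.10 compare with 0.002 and −0.013 over all genes.

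Coregulators and chaperones were mostly not called. Of 17 coregulators tested in young 200M, 3 rose and 1 fell, a share near the 21.5% of all genes. Ncoa1, the p160 coactivator SRC-1, rose by 0.42 (adjusted p = 0.000569), and Nrip1, an estrogen-induced corepressor, fell by 0.47 on the log2 scale (adjusted p = 0.00310). In older 200M, 3 of 16 rose and 2 fell, Nrip1 again among those that fell (−0.32, adjusted p = 0.0379). Of 14 receptor chaperones, the glucocorticoid-induced cochaperone Fkbp5 alone was called in young 200M (0.95, adjusted p = 0.000826) and in young 200H (0.97). In older 200M the edgeR count was 0 of 14, with 1 gene at an unadjusted p under 0.05; DESeq2 counts were made for the receptor genes only.

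Estrogen response genes went both ways in the pituitary. Of 21 tested, 4 rose and 5 fell in young 200M and 6 rose and 3 fell in older 200M (21.5% and 21.4% of all genes were called). Prl, the lactotrope hormone, fell by 1.61 and 1.67 on the log2 scale (adjusted p = 2.86e-07 and 3.41e-06), while the estrogen-induced neuropeptide Gal rose by 1.66 and 1.20 (adjusted p = 0.000259 and 0.0106). Igfbp4, which binds insulin-like growth factors, rose by 0.43 and Xbp1, an estrogen-induced factor of the unfolded protein response, fell by 0.29 on the log2 scale in young 200M. The cell cycle regulator Ccnd1 fell by 0.45 on the log2 scale and Igf1, a growth factor, rose by 1.11 in older 200M. In 200H, 3 rose and 2 fell in young and 2 rose and 1 fell in older mice, again with Prl lower and Gal higher. The list medians in 200M were 0.106 and 0.186.

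Those glucocorticoid response genes that were called mostly rose in young mutants, and the few called in older mutants fell. In young 200M pituitary, 6 of 20 rose and 1 fell (21.5% of all genes were called). In young 200H, 5 rose and 1 fell (12.3%), and the list medians were 0.159 in 200M and 0.321 in 200H. Zbtb16, a transcription factor strongly induced by glucocorticoids, rose by 0.86 (adjusted p = 0.000870), Hif3a by 0.45 and Klf9 by 0.38, while the clock gene Per1 fell by 0.48 on the log2 scale (adjusted p = 0.000126). In older 200M, none rose and 2 fell, the NF-κB inhibitor Nfkbia (−0.48, adjusted p = 0.00716) and the kinase Sgk1 (−0.51, adjusted p = 0.0147). Older 200H had none higher and 3 lower. Of all genes, 21.4% were called in older 200M and 12.2% in older 200H. Tested directly by edgeR, the cohort difference of the 200M effect was called for 0 of the 20 genes, 3 of which had an unadjusted p under 0.05.

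Of the 7 mineralocorticoid response genes tested, 1 fell in young 200M, and 1 rose and 2 fell in older 200M (21.5% and 21.4% of all genes were called). Scnn1g, the γ subunit of the epithelial sodium channel, fell by 1.32 in young 200M (adjusted p = 0.000152) and by 1.39 in older 200M (adjusted p = 0.0200) on the log2 scale. The α subunit Scnn1a also fell in older 200M (−0.64) and the sodium pump subunit Atp1b1 rose (0.38). Among genes that supply or inactivate ligands, the hydroxysteroid dehydrogenase Akr1c14 fell by 0.80 and 0.56 on the log2 scale and the estrogen-hydroxylating Cyp1b1 rose by 0.68 and 0.95, the 2 calls of 7 tested in each cohort. Of the progesterone receptor-dependent ovulation genes, Snap25, a secretory vesicle protein, rose in both cohorts (0.31 and 0.53), and the protease Adamts1 in young 200M (0.66).

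**Figure D4:**
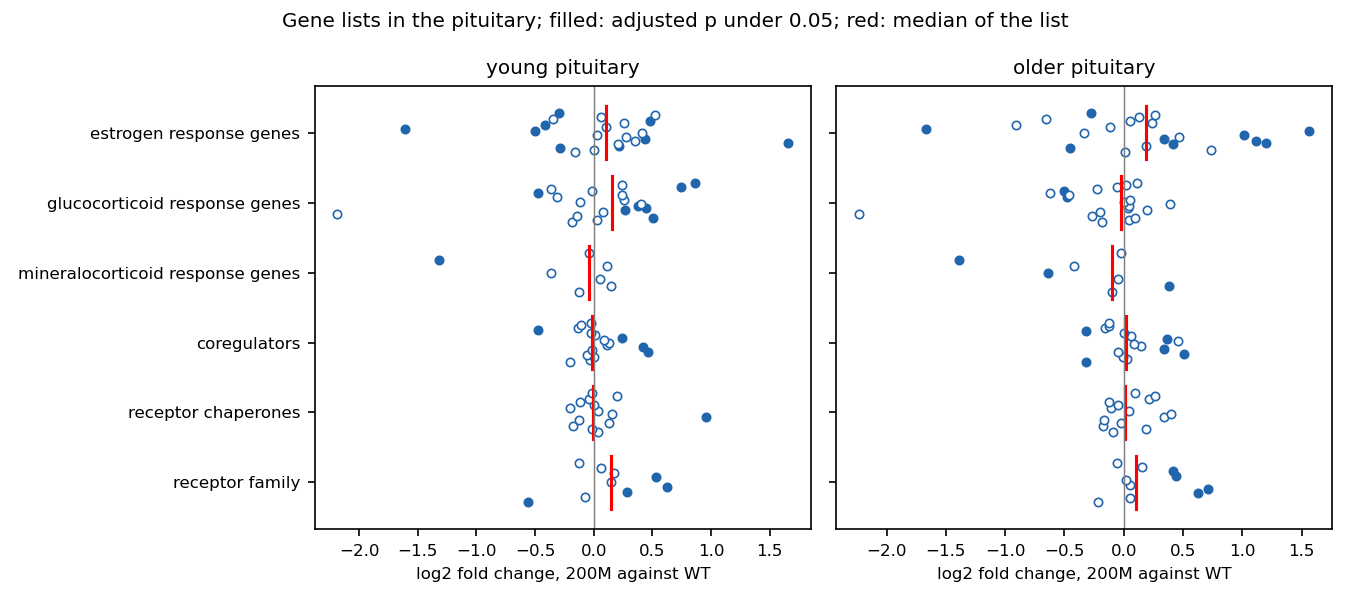
Log2 fold change of every tested gene of 6 lists in 200M against WT pituitary, young (left) and older (right); filled points have an adjusted p under 0.05 and the red mark is the list median. Points of each list lie on both sides of 0, with Prl near −1.6 in both panels.

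In the hypothalamus none of the genes was called in any of the 6 genotype comparisons, and few genes of the transcriptome were (0.0200% and 0.0202% for young 200M and 200H against WT, 0% between them, and 0.00622%, 0% and 0% in older mice). Unadjusted p under 0.05 was reached by 1, 2 and 0 of 5 tested genes in young mice and by 2, 1 and 2 of 7 in older mice. DESeq2 called none of them in young mice and Pgr in older 200M against both WT and 200H. In those older comparisons it called 619 and 637 genes over all genes, in that order.

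Pgr, which marks estrogen-responsive neurons of the preoptic and mediobasal hypothalamus, had the smallest p of the genes in older hypothalamus. Older WT libraries were at 41.9, 45.3, 43.5 and 46.2 CPM, 200H at 32.1, 36.6, 44.6 and 42.8 and 200M at 30.3, 27.6 and 29.8. The 200M values lay below all others, at 0.661 times the WT mean, and 200H overlapped with WT. The log2 fold change in 200M was −0.59 ± 0.09 (adjusted p = 0.0917), the third smallest p of all genes tested. The call depended on the tool, since DESeq2 gave an adjusted p of 5.19e-05, and it was also made without WT replicate 1 (0.0301) or 200M replicate 1 (0.0387). Pituitary hormone RNA was also higher in these 200M tissues (summed CPM 76.6 to 160.2 against 46.6 to 93.4 in WT, with Gh called at 4.98), and its part in the Pgr value was not tested. In young mice Pgr was at 150.3, 144, 171 and 141.5 CPM in WT and 187, 117, 129.8 and 118 in 200M, which overlapped (−0.14 ± 0.11, adjusted p = 0.890).

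Esr1 was higher in each young mutant hypothalamus than in any WT one, without a call. The WT libraries were at 27.1, 28.2, 31.6 and 28.4 CPM, 200H at 34.2, 33.7, 39.2 and 31.9 and 200M at 59.7, 37.8, 37.4 and 33.8. The 200M difference of Esr1 was 0.54 ± 0.15 log2 units (adjusted p = 0.811), and that of 200H was 0.27 ± 0.12 (adjusted p = 0.998). 200M replicate 1 stood apart, with 59.7 CPM of Esr1, 14.1 CPM of Greb1 against 3.19 to 5.42 in the other 200M libraries, and a summed CPM of 10 neuropeptide markers of 244 against 386 to 549 in all other young hypothalamus libraries. Without it the Esr1 log2 fold change was 0.33 ± 0.13 (adjusted p = 0.443). In older mice Esr1 was at 25.3 to 36.6 CPM in WT and 22.9 to 29.2 CPM in 200M (−0.24 ± 0.14, adjusted p = 0.390).

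The other genes were not called in hypothalamus. Nr3c1 was at 109 to 123 CPM in young WT and 116 to 125 CPM in 200M, and at 91.3 to 107 against 78.5 to 97.0 CPM in older mice (−0.23 ± 0.09, adjusted p = 0.229). Nr3c2 was at 55.3 to 67.8 against 59.5 to 82.2 CPM in young and 26.3 to 30.5 against 22.6 to 34.1 CPM in older mice. Greb1 was at 9.42 to 14.4 CPM in older WT and 5.80 to 12.5 CPM in older 200M (−0.46 ± 0.24, adjusted p = 0.328). Of the steroid pathway lists, Prl was the gene called in young 200M hypothalamus (−2.86, adjusted p = 0.00605). Prl is among the 5 pituitary hormone genes, which together summed to only 16.1 to 37.7 CPM in young WT and 15.9 to 50.3 in young 200M hypothalamus. The part of pituitary RNA in this value was not tested. Esr2 had 3 to 13 counts and Gper1 0 to 11 counts per young library and neither was tested there.

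In the young ovary, Esr2 rose in 200M. The 4 WT ovaries were at 207, 226, 246 and 172 CPM, 200H at 463, 270.1, 312 and 258 and 200M at 388, 300.1, 336 and 349. Every mutant ovary lay above every WT ovary. The 200M rise of Esr2 was 0.71 ± 0.10 log2 units (adjusted p = 0.00499), and that of 200H was 0.66 ± 0.16 (adjusted p = 0.309), 1.61 and 1.53 times the WT mean. The 200H value became a call under DESeq2 (adjusted p = 0.0247). In older ovary Esr2 was at 224, 144, 149 and 89.9 CPM in WT and 133, 169.6, 113 and 163 CPM in 200M, all 200M values inside the WT range (−0.06 ± 0.26, adjusted p = 0.923).

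In young ovary, 1 of 6 tested genes was called in 200M (2.58% of all genes), 0 of 6 in 200H (0.00510%) and 0 of 7 between them (0%). Unadjusted p under 0.05 was reached by 2, 3 and 0 genes and DESeq2 called 1, 1 and 0. Summed CPM of 8 granulosa cell markers overlapped between WT (2531 to 3689) and 200M (2143 to 3929). That of 7 luteal markers was 3314 to 4834 in WT against 1694 to 3887 in 200M. Of 13 tested genes of ligand supply and inactivation, 1 rose and 4 fell in young 200M ovary, among them Akr1c18, which inactivates progesterone (−3.49, adjusted p = 0.0152), and Hsd17b7 (−0.83, adjusted p = 0.00875). In older 200M ovary these 2 were the genes called (−8.80 and −1.59), and Fkbp5 fell in both cohorts (−0.44 and −1.53).

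In the older ovary Pgr and Esr1 varied widely within each genotype. Pgr was at 17.9, 5.61, 1.92 and 2.63 CPM in WT, 2.21, 5.29, 7.59 and 62.3 in 200H and 10.4, 2.40, 44.7 and 6.29 in 200M. Esr1 was at 129, 60.5, 59.7 and 69.5 CPM in WT, 48.2, 65.9, 64.1 and 214 in 200H and 87.0, 29.4, 234 and 98.1 in 200M. In each group the library with most Pgr was also the one with most Esr1 and with the highest oviduct markers. Summed CPM of 6 oviduct epithelium markers was 763, 6.57, 6.30 and 5.99 in the same WT libraries, 8.30, 10.5, 389.5 and 3209 in 200H and 311, 24.3, 3421 and 318 in 200M. Both receptors are expressed in oviduct epithelium, and the part of these cells in the result was not tested beyond leaving libraries out.

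**Figure D5:**
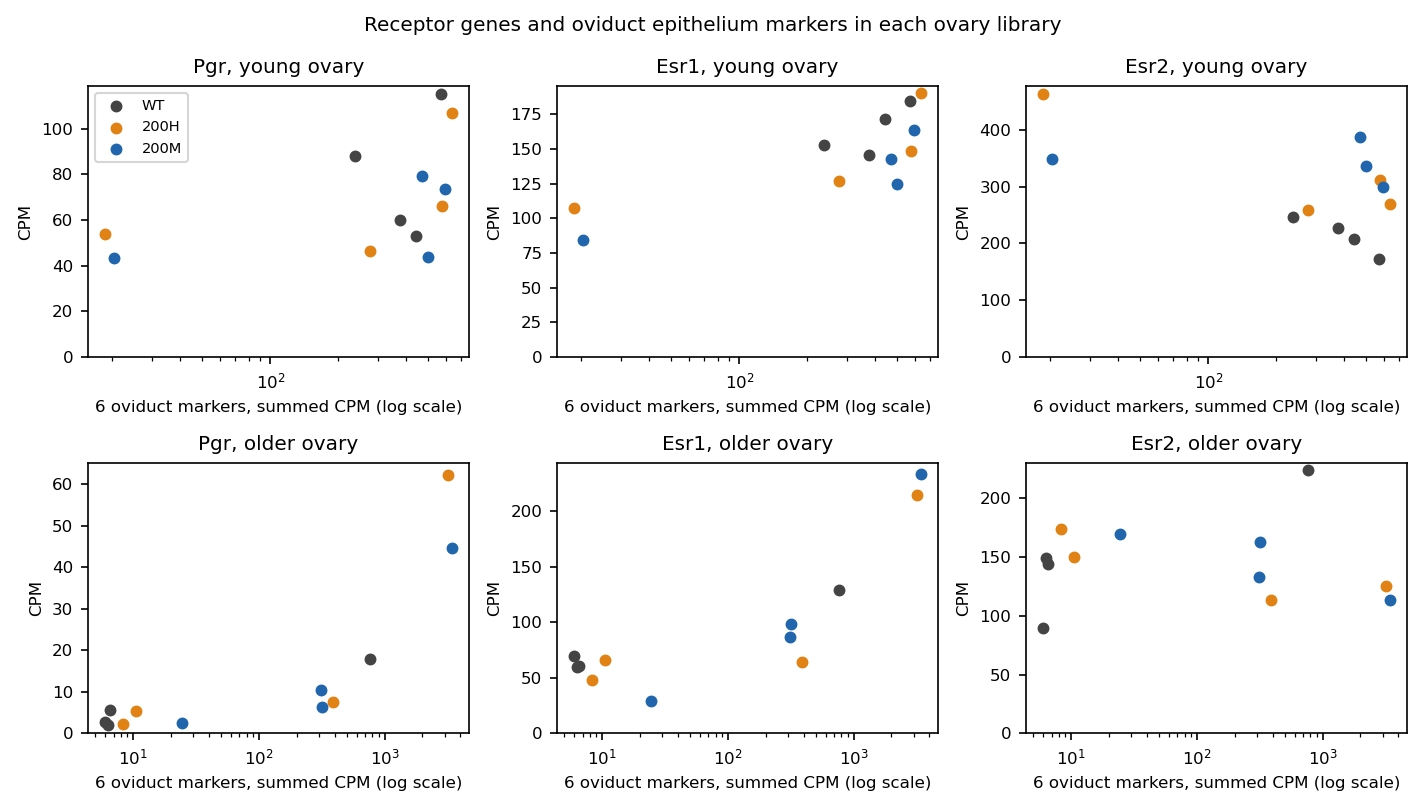
CPM of Pgr, Esr1 and Esr2 (linear axis) against summed CPM of 6 oviduct epithelium markers (log axis) in each ovary library, young above and older below, colored by genotype. In older ovary the libraries at 3209 and 3421 on the x axis hold 62.3 and 44.7 CPM of Pgr and 214 and 234 CPM of Esr1, and 125 and 113 CPM of Esr2.

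No receptor gene was called in older ovary: 0 of 7 in 200M (2.71% of all genes), 0 of 7 in 200H (0%) and 0 of 7 between them (1.61%). Unadjusted p under 0.05 was reached by 0, 1 and 0 genes (Gper1 in 200H, 0.78 ± 0.25, with 2.05 to 3.02 CPM against 0.903 to 1.76 in WT) and DESeq2 called none. Without the 3 libraries of highest oviduct markers, Pgr in 200M changed from 1.16 ± 0.94 to 0.92 ± 0.56 (adjusted p = 0.459) and Esr1 from 0.48 to 0.19. In the libraries left, oviduct markers were still higher in every 200M library (24.3 CPM or more) than in every WT library. Luteal markers summed to 308 to 1709 CPM in older 200M against 3868 to 13380 CPM in WT, and their part was not tested. In young ovary oviduct markers were low in 200H replicate 1 (18.6 CPM) and 200M replicate 4 (20.3 CPM) and 237 to 634 CPM in the other libraries. Leaving those 2 out kept the Esr2 call in 200M (0.70, adjusted p = 0.00681) and lowered the 200H value to 0.46 (adjusted p = 0.272).

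The remaining genes of the young ovary were not called. Esr1 was at 171, 146, 153 and 185 CPM in WT and 143, 164, 125 and 84.1 CPM in 200M (−0.33 ± 0.15, adjusted p = 0.285), and −0.17 without the library low in oviduct markers. Pgr was at 53.1, 60.2, 88.1 and 115 CPM in WT and 79.2, 73.8, 43.7 and 43.2 CPM in 200M (−0.39 ± 0.23, adjusted p = 0.446). Both genes overlapped between genotypes. Gper1, with 3 to 16 counts per library, was below the filter in the comparisons with WT. Greb1, at 925 to 1219 CPM in young WT ovary, was at 679 to 1158 CPM in 200M (−0.16 ± 0.12) and 621.5 to 1027 CPM in 200H (−0.34 ± 0.11, adjusted p = 0.526). Nr3c1 was at 67.9 to 76.3 CPM in WT and 68.6 to 77.3 CPM in 200M (0.01 ± 0.06, adjusted p = 0.972), and Nr3c2 at 18.8 to 21.6 and 20.6 to 28.3 CPM (0.22 ± 0.10, adjusted p = 0.321).

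Whether the 200M effect differed between tissues was tested as an interaction. Nr3c1 and Nr3c2 were raised more in pituitary than in ovary in young mice, by 0.62 ± 0.15 (adjusted p = 0.0122) and 0.50 ± 0.12 (adjusted p = 0.0112), 2 of 7 genes tested (10.1% of all genes). Against hypothalamus the differences were 0.55 ± 0.15 (adjusted p = 0.0144) and 0.55 ± 0.13 (adjusted p = 0.00464) in young mice, 3 of 7 genes with Esr1 (10.5%), and 1.03 ± 0.14 (adjusted p = 9.34e-05) and 0.75 ± 0.19 (adjusted p = 0.0121) in older mice, 2 of 7 (17.5%). Esr1 had a lower 200M effect in young pituitary than in young hypothalamus (−0.59 ± 0.17, adjusted p = 0.0201), a value that became −0.38 ± 0.12 (adjusted p = 0.0417) without hypothalamus 200M replicate 1. The Nr3c1 difference from hypothalamus in young mice was lost without pituitary WT replicate 1 (adjusted p = 0.0514) or the WT library with no usable number (0.0621), and that of Esr1 without hypothalamus WT replicate 1 (0.0503).

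The other interactions gave no call. Between older pituitary and ovary 0 of 7 genes was called (5.77% of all genes), with Nr3c1 at 0.76 ± 0.24 (adjusted p = 0.0809), the 1 gene with an unadjusted p under 0.05 and the 1 that DESeq2 called. Between ovary and hypothalamus the counts were 0 of 6 in young (0.110%) and 0 of 7 in older mice (0.897%), with 1 and 0 genes at an unadjusted p under 0.05 and none called by DESeq2. Between cohorts the 200M effect was called for 0 of 6 genes in pituitary (0.0273%), 0 of 7 in hypothalamus (0.154%) and 0 of 7 in ovary (0.197%). Unadjusted p under 0.05 was reached there by 1, 3 and 1 genes, and DESeq2 called 0, 1 and 0. The pituitary difference of older minus young was 0.13 ± 0.18 for Nr3c1, 0.01 ± 0.14 for Nr3c2 and −0.35 ± 0.16 for Greb1.

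For each gene, those with the most similar pattern were found by the Pearson r of log2(CPM + 1) after centring each tissue and cohort, a description over 69 libraries that share tissue, depth and genotype. Esr1 was most like Glis3 (r = 0.886), Hipk1 (0.873) and Ppp2r2c (0.869), and Pgr most like Ano5 (0.862), Tex2 (0.856) and Phactr1 (0.852). Nr3c1 was most like Spag9 (0.803), Ppm1f and Grb10 (0.799 each) and Nr3c2 most like Dnm3 (0.747), Arrb1 (0.743) and Fchsd2 (0.735). Greb1 had Chst11 (0.728), Tmem86a (0.719) and Rian (0.645), Gper1 no gene above 0.490, and Esr2, over the 47 libraries of the 4 sets where it averaged at least 1 CPM, Prps2 (0.680), Snx18 (0.646) and Cables1 (0.629).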

How the data were processed

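RNA-seq counts per gene were analysed in 69 libraries, grouped by the labels' tissue, age and genotype. The authors aligned reads to mm10 (GRCm38) with STAR 2.7.1a and deposited raw counts: from featureCounts with GENCODE vM25 for young libraries and older ovary, and from htseq-count 0.9.1 with Ensembl annotation, ignoring strand, for older pituitary and hypothalamus. The tables also hold the authors' own DESeq2 fold changes and p-values, which were not used, and 3 count columns under a repeated header name were left out.

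Counts were filtered with filterByExpr, scaled by TMM and tested with edgeR 4.0.16 (R 4.3.3) for each pair of genotypes (18 comparisons), for tissue and cohort interactions (6 and 3) and between WT tissues (6). DESeq2 1.42.0, other scalings, no filter, 1 fit of all genotypes, a replicate block and leaving out each library were alternatives. The test was checked on simulated data. The 3 further settings (leaving out libraries by oviduct markers in young or older ovary, and hormone genes) were chosen after seeing the data.

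The 7 genes and the gene lists were chosen with earlier results of these data known. Of each list, at most 4 called genes of smallest p were named, in comparisons with at least 5 calls. CPM per kb used GENCODE M21 exon unions and CPM scaled within each tissue and cohort, so levels set side by side across tissues come from separate scalings. 1 called gene of the related receptors is not reported here.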

Additional observations from a re-analysis of the deposited data

Results flagged for a closer look

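8 of 101 groups of 4 libraries had a value far from the other 3, where chance alone flags about 1 in 20. In the pituitary these were Nr3c2 at 189 CPM in young 200H replicate 3 (high) and at 49.1 CPM in older 200H replicate 1 (low). In the young hypothalamus they were Esr1 at 59.7 CPM in 200M replicate 1 (high) and Gper1 at 0 CPM in 200H replicate 3 (low), where the other 3 libraries had 1.26 to 1.45 CPM from 5 counts each. In the ovary they were Nr3c2 at 18.8 CPM in young WT replicate 2 (low), Esr1 at 129 CPM in older WT replicate 1, and Esr1 at 214 CPM and Pgr at 62.3 CPM in older 200H replicate 4 (all high). The last 3 values come from the libraries with the most oviduct marker RNA in their group.

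By the test of the interaction, the 200M effect was called different between tissues in 7 cases. Between young pituitary and ovary, Nr3c1 differed by 0.62 and Nr3c2 by 0.50 on the log2 scale, 2 of 7 tested (10.1% of all genes). Between young pituitary and hypothalamus Nr3c1 differed by 0.55, Nr3c2 by 0.55 and Esr1 by −0.59, 3 of 7 (10.5%). Between older pituitary and hypothalamus Nr3c1 differed by 1.03 and Nr3c2 by 0.75, 2 of 7 (17.5%). Each call in young mice was lost in some other setting, with a replicate block or on leaving out a library.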

How the results depend on the processing

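Of 2962 values of the receptor genes under another setting, 2839 stayed on their side of the threshold. Called ones among them kept their direction, and uncalled ones stayed within 1 SE. A further 36 gained a call, 18 lost one and 68 moved without a call. Counted without regard to these classes, 135 values had another sign than in the main fit. In 1 of these the main value was called: Nr3c1 between older WT pituitary and ovary. It went from 0.42 to −0.074 with total counts alone, where it was not called (edgeR, adjusted p = 0.55). Without a filter on low counts, the number of genes called rose to 4 from 2 in young 200H pituitary, to 3 from 1 in young 200M ovary, to 2 from 0 between older 200M and 200H pituitary, and to 1 from 0 in young 200H ovary, in older 200M hypothalamus against WT and against 200H, in the young ovary to hypothalamus difference and in the hypothalamus cohort difference. DESeq2 called 1 rather than 0 in young 200H ovary, between older 200M and 200H pituitary, in older 200M hypothalamus against WT and against 200H, in the older pituitary to ovary difference and in the hypothalamus cohort difference. Total counts alone also gave 1 rather than 0 in the older pituitary to ovary difference. One fit of all genotypes called 2 rather than 4 in young 200M pituitary. The cause of these changes was not tested.

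Replicate numbers showed no pairing of the samples: correlations of deviations between same-numbered genotypes of 1 tissue ran from −0.615 to 0.423, and in 0 of 18 comparisons was every one over 0.1. Between same-numbered tissues of 1 genotype they ran from −0.129 to 0.375, and again in 0 of 18 was every one over 0.1. A low correlation between different tissues cannot show whether they came from the same mouse. With a replicate block, 5 rather than 3 genes were called in older 200M pituitary (Pgr at −0.49, adjusted p = 0.00502, and Gper1 at 0.52, adjusted p = 0.0422, in addition), 0 rather than 2 in the young pituitary to ovary difference (Nr3c1 0.50, adjusted p = 0.0736; Nr3c2 0.45, adjusted p = 0.0871) and 1 rather than 3 in the young pituitary to hypothalamus difference (Nr3c1 0.405, adjusted p = 0.136; Nr3c2 0.53, adjusted p = 0.0521), and Pgr in young 200M pituitary was not called (−0.24, adjusted p = 0.0508). Leaving out 1 library at a time gave 4 to 4 calls in young 200M pituitary, 1 to 3 in young 200H, 3 to 5 in older 200M, 1 to 2 in older 200H and 0 to 2 between older 200M and 200H, and 0 to 1 in older 200M hypothalamus; it gave 2 to 3 in both young pituitary interactions, 2 to 2 in the older pituitary to hypothalamus one and 0 to 1 in the young ovary to hypothalamus and older pituitary to ovary ones. Over all genes, older 200M against WT hypothalamus had 1 call, 619 with DESeq2 and 1079 without a filter, and young 200M ovary 497, 150 with the replicate block and 845 without a filter. Sparse counts limit Esr2 in pituitary and hypothalamus and Gper1 in hypothalamus.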
